A study of Mus musculus with 18 samples.

Results

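Arhgef10, Plekhh1, Anln, Plekhb1, Tppp and Tspan2 are 6 genes of the oligodendrocyte cytoskeleton and membrane, and their RNA was followed across glyphosate doses in mouse brain. They were taken as the rows of the count table that map to these 6 symbols, and 6 of 6 were found among its 27179 genes. The 6 genes were selected on their measured level by dose in these same mice, with earlier results for Arhgef10 and Plekhh1 known, so their levels by dose are a description and carry no test. C57BL/6J mice, a standard inbred strain, received the herbicide glyphosate by oral gavage every day for 14 days from 4 months of age, and half-brain RNA was sequenced. The groups were vehicle (the neutralized solution without glyphosate, 5 mice), 125 mg/kg/day (5 mice), 250 mg/kg/day (4 mice) and 500 mg/kg/day (4 mice), with 10 males and 8 females in all. The mice were non-transgenic and were caged by sex and dose, so cage and group cannot be told apart. The methods name half-brains as the tissue, while another passage calls it hippocampal. The deposited samples are titled brain, and the count columns carry the label Whole. The paper took the RNA from a cohort with halved brains and dissected the hippocampus in another cohort.

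Oligodendrocytes wrap axons in myelin. To do so they extend processes by remodelling actin and microtubules, sort membrane proteins to the sheath, and later compact it. Arhgef10 encodes a guanine nucleotide exchange factor that acts on the cytoskeleton through small GTPases, and variants of the human gene are linked to slowed nerve conduction. Plekhh1 encodes a protein with pleckstrin homology, MyTH4 and FERM domains, the kind that ties membranes to the cytoskeleton. Anln encodes anillin, an actin-binding scaffold that holds the cleavage furrow in dividing cells and assembles with septins in mature myelin. Plekhb1 encodes evectin-1, a membrane-anchored pleckstrin homology protein of the secretory pathway. Tspan2 encodes a tetraspanin of myelin membranes, and Tppp encodes the tubulin polymerization promoting protein, a microtubule nucleator of oligodendrocytes.

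Promoter windows are shown because 5 of these genes moved together across mice and Tppp did not. RefSeq (GRCm38.p6) gave windows for 5 of 6 genes, and Arhgef10 is named only. The 250 bases before an annotated start of 4 genes are printed 5′ to 3′ on the strand of the gene. For Anln that start lies slightly inside the span of the gene, which ends at chr9:22389211, so the window overlaps the span by a few bases. Capitals mark any of 7 short motifs searched on both strands, the SOX cores ACAAAG and AACAAT, the E-box CAGCTG, the MYRF core CTGGCAC, the cell cycle element TTTGAA, the GC box GGGCGG and the CCAAT box. The windows lie at chr12:79028913-79029162 (plus strand) for Plekhh1, chr9:22389207-22389456 (minus) for Anln, chr7:100662395-100662644 (minus) for Plekhb1 and chr13:74009169-74009418 (plus) for Tppp.
Plekhh1: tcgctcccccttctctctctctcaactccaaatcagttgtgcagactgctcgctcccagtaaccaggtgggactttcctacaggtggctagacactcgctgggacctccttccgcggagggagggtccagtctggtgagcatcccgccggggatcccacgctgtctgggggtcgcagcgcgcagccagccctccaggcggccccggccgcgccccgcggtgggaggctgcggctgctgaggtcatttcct
Anln: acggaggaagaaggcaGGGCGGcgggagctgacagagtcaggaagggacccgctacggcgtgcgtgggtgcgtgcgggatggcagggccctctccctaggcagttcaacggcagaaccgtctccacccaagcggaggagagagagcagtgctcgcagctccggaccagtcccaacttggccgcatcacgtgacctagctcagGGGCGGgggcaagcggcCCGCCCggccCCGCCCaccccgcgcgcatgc
Plekhb1: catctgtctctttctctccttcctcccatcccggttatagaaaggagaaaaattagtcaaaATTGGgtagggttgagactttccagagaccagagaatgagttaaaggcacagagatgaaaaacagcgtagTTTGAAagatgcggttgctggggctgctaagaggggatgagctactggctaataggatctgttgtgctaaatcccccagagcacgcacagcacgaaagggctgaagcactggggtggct
Tppp: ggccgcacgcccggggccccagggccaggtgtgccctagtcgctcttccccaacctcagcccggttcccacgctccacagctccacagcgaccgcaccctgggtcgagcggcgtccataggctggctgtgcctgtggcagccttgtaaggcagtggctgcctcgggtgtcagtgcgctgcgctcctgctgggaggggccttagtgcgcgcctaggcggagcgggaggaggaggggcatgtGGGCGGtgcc

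The Plekhh1 window held none of the 7 motifs. The Anln window held the GC box 4 times and the Tppp window once, and 32.7% of all 32817 mouse promoter windows of this length hold it. The printed Plekhb1 window held the cell cycle element once (5245 of the 32817 windows) and the CCAAT box once (33.8%). The Plekhb1 window had a GC content of 48.4%, against 66.8% for Plekhh1, 70.4% for Anln and 71.6% for Tppp, and the median of all windows was 52.4%. The first window of Tspan2 (chr3:102734520-102734769, plus strand) held no motif and had a GC content of 57.2%. A further start of Tspan2 (GC content 64.4%) and of Plekhb1 (50.8%) each had the SOX core ACAAAG (16.5% of all windows). The further start of Plekhb1 also had the CCAAT box. A match is a string of letters and says nothing of binding.

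Library totals ran from 3948096 to 11732885 counts, and the 6 genes had between 156 and 11628 counts in every library, so all 6 passed the filter on low counts. Mouse G4 (a female at 500 mg/kg) and mouse G9 (a vehicle female) stood apart, with median correlations of 0.943 and 0.942 with the other libraries, against 0.959 to 0.975 for the remaining 16. Markers of glutamatergic forebrain neurons summed to 358 CPM (TMM-normalized counts scaled to a common library size) in G4 and 444 CPM in G9, while the median was 1723 CPM at 500 mg/kg and 3394 CPM in vehicle mice, and mature oligodendrocyte markers were highest in G4, at 17945 CPM. Values without G4 are therefore given beside the slopes of the 6 genes and beside the other slopes and list medians printed that leaving it out moved by over 1.5 times. Fits with a covariate beyond sex were not repeated without G4. Separate mice are the replicates.

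Compared per kilobase of exon, Tppp and Plekhb1 were the most abundant of the 6, with 162 ± 25.4 and 133 ± 47.1 CPM per kilobase (mean ± SD over 18 mice). Tspan2 followed at 49.1 ± 16.9 CPM per kilobase. Plekhh1 (7.82 ± 3.14), Anln (5.79 ± 2.97) and Arhgef10 (5.57 ± 1.55) lay at a similar low level, and their ranges overlapped. Relatives of the 6 showed other orders on this scale. Tppp3 had 60.7 CPM per kilobase and Tppp2 0.0316, Plekhb2 had 46.5, Plekhh3 5.94, Plekhh2 1.62 and Arhgef10l 4.00, while the tetraspanins Cd81 and Cd9 had 128 and 4.95.

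Plekhh1 (chr12:79029163-79081655, GRCm38, plus strand) was the member with the clearest separation of the highest dose. It had 30.6, 38.9, 42.1, 42.9 and 49.2 CPM in vehicle mice, 22.8, 38.2, 42.6, 50.7 and 61.7 at 125 mg/kg, 43.4, 43.7, 52.3 and 61.0 at 250 mg/kg, and 57.8, 64.8, 90.9 and 112 at 500 mg/kg. Every mouse at 500 mg/kg was above every vehicle mouse, while the groups at 125 and 250 mg/kg overlapped the vehicle group and each other. The means were 81.4 ± 24.8 CPM at 500 mg/kg (SD, n = 4) and 40.7 ± 6.79 CPM in vehicle mice (n = 5), a ratio of 1.998, or 1.75 without G4. The slope on dose, fitted with sex in edgeR, was 1.04 ± 0.22 (log2 per 500 mg/kg, standard error) and 0.81 ± 0.23 without G4. The end of Plekhh1 shares 987 bp with Pigh on the other strand. The strand setting of the counting is not given in the sources used here, so reads of such overlaps cannot be told apart. Pigh averaged 44.3 counts per library.

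Arhgef10 (chr8:14906412-15001085, plus strand) behaved much like Plekhh1. It had 32.2, 42.0, 42.2, 49.5 and 50.1 CPM in vehicle mice, 29.8, 40.5, 44.7, 51.1 and 55.1 at 125 mg/kg, 40.7, 49.2, 53.2 and 64.02 at 250 mg/kg, and 50.8, 64.8, 80.4 and 82.5 at 500 mg/kg. The lowest mouse at 500 mg/kg (G79) was just above the highest vehicle mouse (G9), so the groups touched without overlapping. The means were 69.6 ± 14.8 CPM at 500 mg/kg and 43.2 ± 7.26 CPM in vehicle mice, a ratio of 1.61, or 1.51 without G4. The slope was 0.73 ± 0.17, and 0.63 ± 0.19 without G4. Arhgef10 and Cntn2 were also singled out by the study from these mice. Every mouse at 500 mg/kg exceeded every vehicle mouse for 2 of the 6 genes, and for 368 of 15863 tested genes (2.32%), and nothing is read from this count because the same contrast chose the members.

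Anln (chr9:22331214-22389211, minus strand) varied most of the 6, with a 5.54-fold range over mice. It had 29.7, 34.7, 36.9, 53.2 and 56.4 CPM in vehicle mice, 24.98, 28.5, 49.3, 52.1 and 52.1 at 125 mg/kg, 36.7, 39.1, 52.0 and 68.6 at 250 mg/kg, and 40.7, 69.8, 76.2 and 143 at 500 mg/kg. Of the 4 mice at 500 mg/kg, 3 were above all vehicle mice and G79 was inside their range. The mean at 500 mg/kg was 82.4 ± 43.2 CPM, or 62.3 ± 18.9 CPM without G4, against 42.2 ± 11.9 CPM in vehicle mice. The slope was 1.04 ± 0.28, and 0.60 ± 0.28 without G4. Anln shares 653 bp with 9530077C05Rik on the other strand, which averaged 55.3 counts.

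Plekhb1 (chr7:100643896-100662394, minus strand) did not follow dose step by step. It had 304, 323, 395, 485 and 589 CPM in vehicle mice, 329, 426, 478, 567 and 684 at 125 mg/kg, 334, 391.8, 420.0 and 434 at 250 mg/kg, and 423, 609, 657 and 1015 at 500 mg/kg. The mean at 250 mg/kg, 395 ± 44.0 CPM, lay below that of the vehicle mice, 419 ± 119 CPM, and at 500 mg/kg it was 676 ± 247 CPM, or 563 ± 124 CPM without G4. The slope was 0.64 ± 0.23, and 0.37 ± 0.24 without G4.

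Tspan2 (chr3:102734770-102772310, plus strand) had a like pattern. It had 144, 162, 183, 208 and 237 CPM in vehicle mice, 153, 197, 248, 284 and 313 at 125 mg/kg, 173, 175, 241 and 246 at 250 mg/kg, and 188, 274, 290.3 and 483 at 500 mg/kg. The mean was 239 ± 64.7 CPM at 125 mg/kg and 209 ± 40.2 CPM at 250 mg/kg, within the spread of either group, and 3 of 4 at 500 mg/kg were above all vehicle mice. The slope was 0.65 ± 0.24, and 0.30 ± 0.23 without G4. Tspan2 shares 648 bp with Tspan2os on the other strand, which averaged 3.0 counts.

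Tppp (chr13:74009419-74035753, plus strand) was the exception. It had 531, 737, 825, 851 and 895 CPM in vehicle mice, 807, 897, 943, 1008 and 1080.2 at 125 mg/kg, 664, 780.3, 838 and 846 at 250 mg/kg, and 634, 808, 847 and 873 at 500 mg/kg. No mouse at 500 mg/kg was above the highest vehicle mouse, and the highest levels were at 125 mg/kg, where 4 of 5 mice exceeded all vehicle mice. The slope was -0.07 ± 0.16. It was -0.14 ± 0.18 without G4 and 0.02 ± 0.17 without G79. Mouse G4, the highest of all 18 for the other 5 genes, ranked 8 for Tppp, and G9 ranked last.

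**Figure D1:**
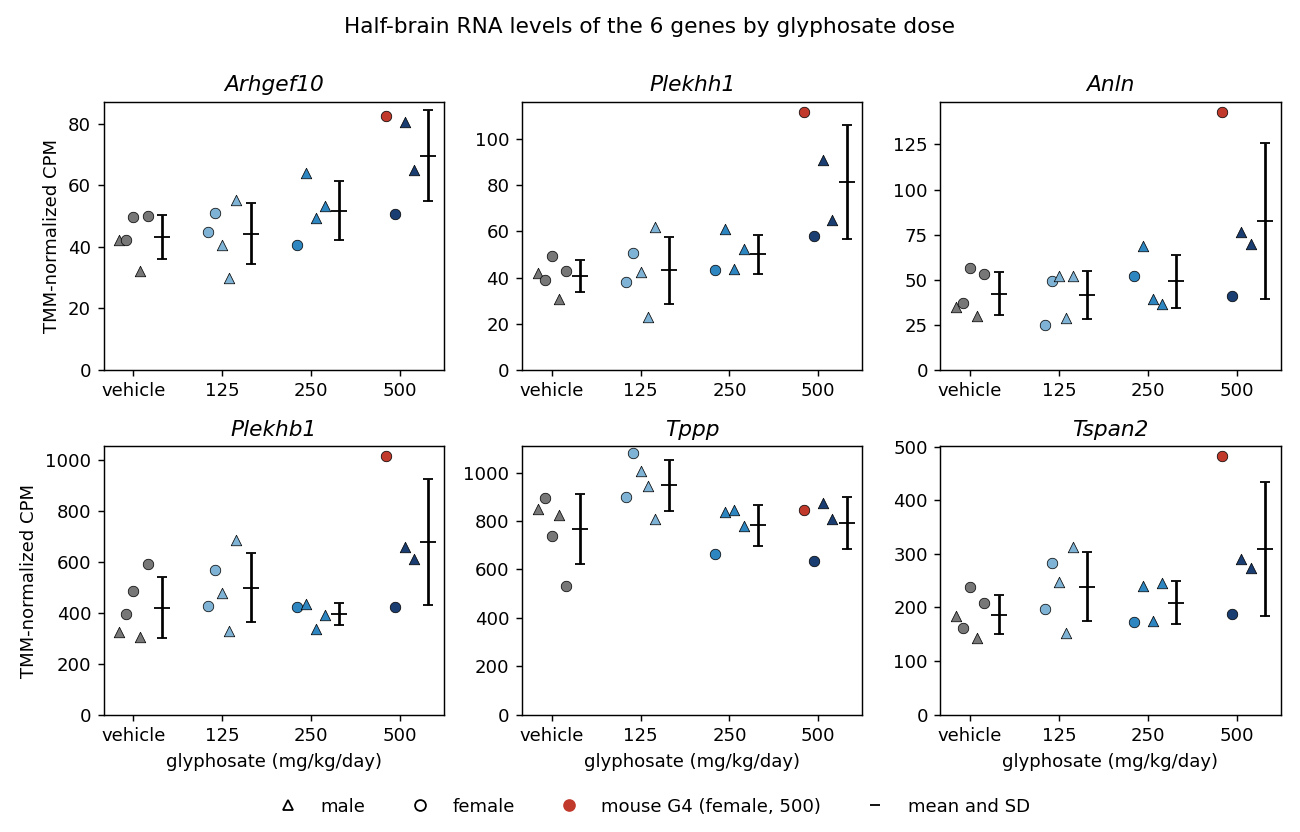
TMM-normalized CPM of each gene (y axis, from 0) in each of the 18 mice by glyphosate dose (x axis, mg/kg/day), with males as triangles, females as circles, G4 in red, and the mean and SD of each group. G4 is the highest point in 5 panels, while in the Tppp panel the 4 mice at 500 mg/kg sit between 634 and 873 CPM, inside the vehicle range.

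Of the 6 genes, 1 (Plekhh1) was called in the regression on dose at an adjusted p under 0.05 from edgeR, against 39 rising genes (0.246%) and 46 in either direction (0.29%) of the 15863 tested. DESeq2 called 3 (Plekhh1, Arhgef10 and Anln), against 1.4% of all genes. No member was called by edgeR without G4, nor without any 1 of 9 other mice, nor with dose as rank, with no filter on low counts or with the tag number as a factor. Since this contrast chose the members, nothing is read from these counts. Against vehicle alone, edgeR called no member at 125, 250 or 500 mg/kg, where it called 0.0%, 0.0% and 0.0189% of all genes (1773, 596 and 1836 genes at an unadjusted p under 0.05), and DESeq2 called Plekhh1 at 500 mg/kg, against 0.964% of all genes. The log2 differences of 500 mg/kg over vehicle were 1.01 for Plekhh1, 0.997 for Anln, 0.74 for Tspan2, 0.73 for Plekhb1, 0.70 for Arhgef10 and 0.03 for Tppp. Without G4 they were 0.80 for Plekhh1, 0.56 for Anln, 0.40 for Tspan2, 0.48 for Plekhb1, 0.60 for Arhgef10 and -0.04 for Tppp. Those of 250 mg/kg over vehicle were between -0.02 (Tppp) and 0.34 (Plekhh1), and those of 125 mg/kg over vehicle between 0.04 (Anln) and 0.38 (Tspan2). These comparisons share the vehicle mice.

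The mouse tags carry a number that overlaps with dose in part. Tag number 46 held vehicle females G9 and G15 and the 500 mg/kg males G87 and G90, tag number 43 held vehicle female G18 and the 125 mg/kg males G34, G40 and G45, and all mice at 250 mg/kg had number 45. Within tag 46, Plekhh1 had 64.8 and 90.9 CPM at 500 mg/kg and 38.9 and 42.9 CPM in vehicle mice. Arhgef10 had 64.8 and 80.4 CPM at 500 mg/kg there and 42.0 and 50.1 CPM in vehicle mice. Tppp overlapped, with 808 and 873 CPM at 500 mg/kg and 531 and 895 CPM in vehicle mice. Within tag 43, Plekhh1 had 22.8, 42.6 and 61.7 CPM at 125 mg/kg and 49.2 CPM in the vehicle mouse. Arhgef10 had 29.8, 40.5 and 55.1 CPM at 125 mg/kg there and 49.5 CPM in the vehicle mouse. Sex and dose cannot be told apart within either tag. Tags 41, 42, 44 and 45 each held a single dose, so a slope fitted with the tag number rests on tags 43 and 46. Such a fit parts dose from sex only through the sex difference within tag 45. The only female of tag 45 was G49, the shallowest library. With the tag number as a factor, the slopes were 0.91 ± 0.58 for Plekhh1, 0.51 ± 0.45 for Arhgef10, 0.97 ± 0.71 for Anln, 0.47 ± 0.52 for Plekhb1, 0.42 ± 0.56 for Tspan2 and -0.08 ± 0.32 for Tppp. What the number stands for is not stated.

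A departure of the group means from a straight line in dose was called by edgeR for 1 of 15863 genes (0.0063%, with 1862 at an unadjusted p under 0.05) and by DESeq2 for 148 (0.907%), and for 0 of the 6 with either tool. The same group means were in view when the 6 genes were chosen, so no p is given for them and nothing is read from the count.

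Sex was not used to choose the genes. Plekhb1 averaged 455 ± 146 CPM in males (n = 10) and 540.1 ± 205 CPM in females (n = 8), with a log2 difference of -0.25 ± 0.18 (adjusted p = 0.669 from edgeR). Tppp averaged 858 ± 69.0 CPM in males and 786 ± 177 CPM in females, with a difference of 0.13 ± 0.11 (adjusted p = 0.709 from edgeR). Differences of the other 4 were between -0.20 (Anln) and -0.05 (Arhgef10). No member passed, with edgeR or with DESeq2, while these tools called 7 genes (0.0441%) and 43 genes (0.187%), and at an unadjusted p under 0.05 edgeR had 1268 genes and 0 members. Without G4, which is a female, the differences of Plekhh1 and Tspan2 changed sign, to 0.00 and 0.05, and Anln came to -0.00.

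The slope of males minus that of females was tested as an interaction, and no gene passed with either tool (0.0% of genes, 262 at an unadjusted p under 0.05 with edgeR and 0 of the 6). With all mice the difference was 0.54 ± 0.34 for Arhgef10, 0.23 ± 0.49 for Plekhb1, 0.16 ± 0.45 for Plekhh1, 0.11 ± 0.60 for Anln, 0.01 ± 0.33 for Tppp and -0.05 ± 0.50 for Tspan2 (adjusted p = 0.9999 for each from edgeR). Without G4 it was 1.24 ± 0.52 for Anln, 0.97 ± 0.46 for Plekhb1, 0.94 ± 0.34 for Arhgef10, 0.76 ± 0.46 for Tspan2, 0.72 ± 0.45 for Plekhh1 and 0.15 ± 0.38 for Tppp. With G4 out, a single female, G79, was left at 500 mg/kg. The differences without G4 are therefore given as sizes only, and no test is read from them. Without G79 in place of G4 the 6 differences ran from -0.48 (Tspan2) to 0.32 (Arhgef10). The size of the difference and, for 5 genes, its sign thus depended on which female was kept at the highest dose.

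**Figure D2:**
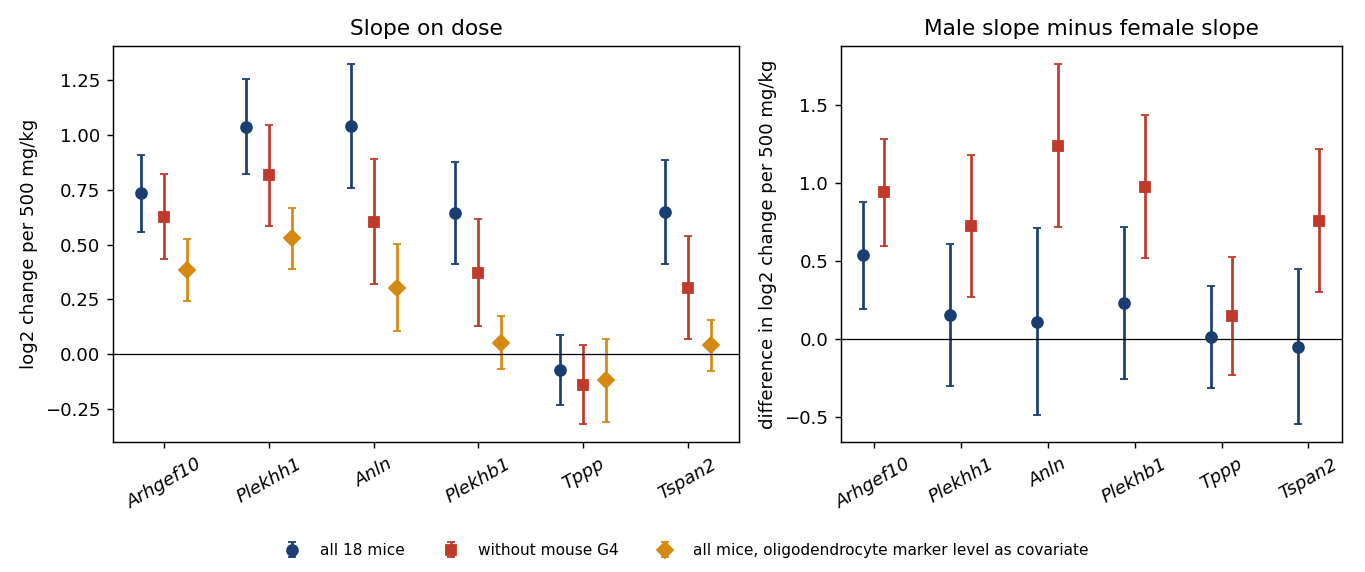
Left, slope of each gene on dose (log2 change per 500 mg/kg) with its standard error in all 18 mice (blue circles), without mouse G4 (red squares) and with the oligodendrocyte marker level as a covariate (orange diamonds). Right, male slope minus female slope with its standard error in all mice and without G4, where Anln is at 1.24 without G4 and at 0.11 in all mice.

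Across the 18 mice, 5 of the genes varied together and Tppp did not. Among Arhgef10, Plekhh1, Anln, Plekhb1 and Tspan2 the 10 pairs had Pearson r of 0.78 to 0.96 on log2(CPM + 1) (Spearman coefficients 0.72 to 0.94), highest for Arhgef10 with Plekhh1 (r = 0.96), and Plekhb1 with Tspan2 had 0.91. The 5 pairs with Tppp had r of -0.09 to 0.15. Deviations from a fit of dose group plus sex were also taken, in all mice only. The fit had no term for each sex within a dose, so differences of that kind remain in the deviations. On them the 10 pairs had r of 0.69 to 0.92. On the levels themselves, G4 and G87 were the 2 mice whose mean log2 level of the 6 genes was farthest from the median over mice. Without G4 and G87 the 10 pairs had r of 0.64 to 0.94, and without G4 and G9 of 0.72 to 0.96. These values describe libraries that share a normalization, and were not tested. The libraries differed in markers of brain regions. Glutamatergic forebrain markers summed to 358 to 4622 CPM, and hindbrain and spinal cord markers to 0.0929 to 236 CPM. The part of these differences in the correlations was not tested.

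The same split was seen against markers of mature oligodendrocytes (18 of 18 tested, such as Mbp, Mog and Mag). Their summed level ran from 4514 to 7976 CPM in vehicle mice, from 4382 to 10474 at 125 mg/kg, from 5029 to 7722 at 250 mg/kg and from 6545 to 17945 at 500 mg/kg, and none of the 18 markers was near 0. Their mean log2 level correlated over 18 mice with Plekhb1 (r = 0.96), Tspan2 (0.95), Anln (0.88), Plekhh1 (0.88) and Arhgef10 (0.83), and not with Tppp (-0.04). The Tppp level thus did not follow the markers of the cell type in which its protein is best known, against the grouping of the 6 genes. Tppp had r of 0.89 with the microglia markers, 0.64 with the glutamatergic neuron markers and r of -0.76 with the hindbrain and spinal cord markers. Without G4 and G9 these were 0.81, 0.74 and -0.71. Tppp also had r of 0.63 with the Schwann cell, -0.59 with the astrocyte and -0.54 with the endothelial markers, so it varied with many lists. The other 5 genes had r of 0.69 to 0.81 with the midbrain dopamine neuron markers and -0.69 to -0.50 with the glutamatergic neuron markers. Without G4 and G9 those ranges were 0.53 to 0.72 and -0.59 to -0.37, and the r with the oligodendrocyte markers was 0.78 to 0.95 for the 5 genes and -0.02 for Tppp. In bulk tissue, fewer cells of a type and less RNA per cell cannot be told apart.

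With the oligodendrocyte marker level as a covariate, the slopes of Plekhb1 and Tspan2 were 0.05 ± 0.12 and 0.04 ± 0.12, and that of Anln was 0.30 ± 0.20. Plekhh1 and Arhgef10 had 0.53 ± 0.14 and 0.38 ± 0.14 in the same fit, and Tppp had -0.12 ± 0.19. Set against the marker mean mouse by mouse, Plekhb1 differed from it by 2.13 ± 0.11 on the log2 scale at 500 mg/kg and 2.12 ± 0.19 in vehicle mice, and Tspan2 by 0.99 ± 0.09 and 0.98 ± 0.12. Plekhh1 lay -0.88 ± 0.22 from it at 500 mg/kg and -1.18 ± 0.17 in vehicle mice, with overlapping groups. Arhgef10 lay -1.08 ± 0.35 from it at 500 mg/kg and -1.10 ± 0.15 in vehicle mice, the low end at 500 mg/kg (-1.61) being G4. The covariate fit was not repeated without G4, whose marker mean was 7.99, against 7.26 in G87, the next highest mouse. All 18 marker slopes on dose were positive, so the covariate was itself linked to dose. The part of oligodendrocyte marker level in these slopes was not tested in any other way.

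**Figure D3:**
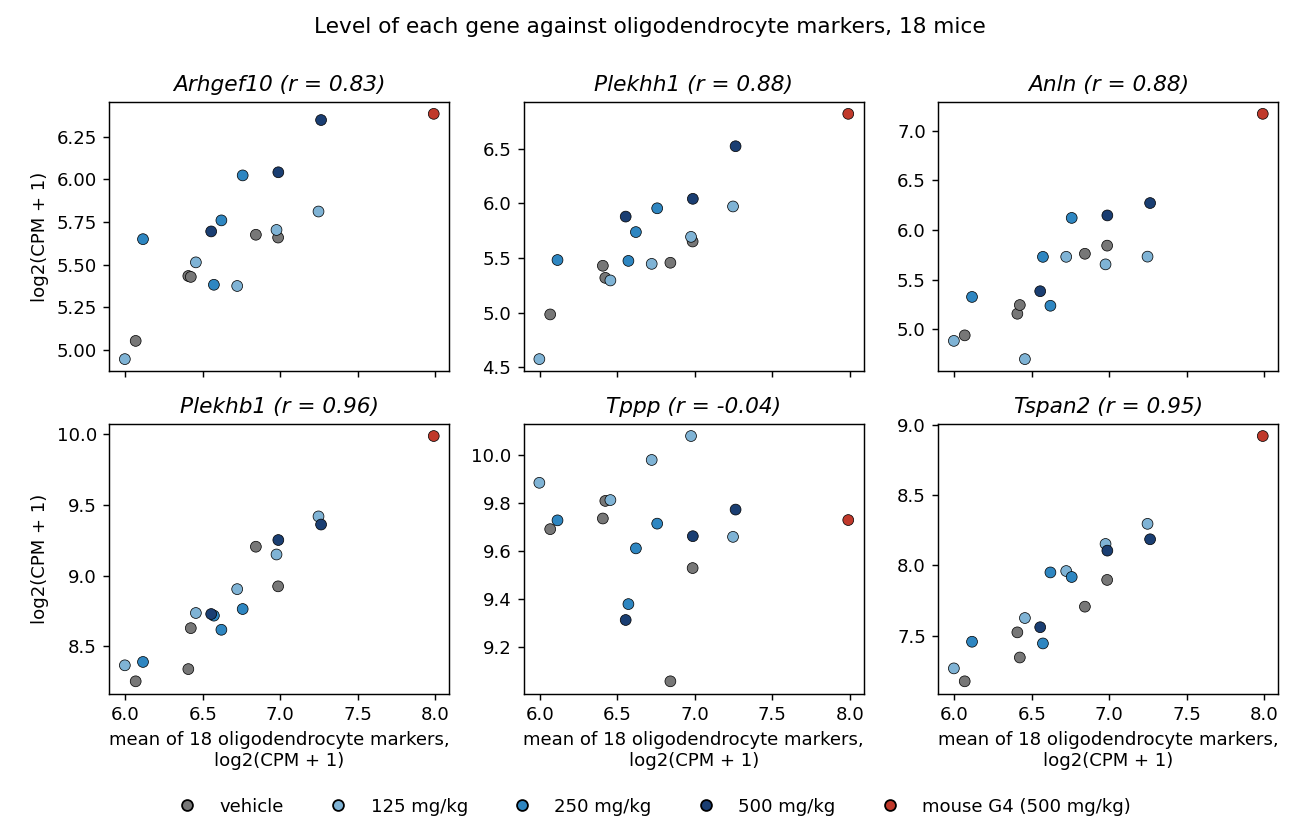
Level of each gene (y axis, log2(CPM + 1)) against the mean of 18 mature oligodendrocyte markers (x axis, log2(CPM + 1)) in 18 mice, coloured by dose with G4 in red. Plekhb1 (r = 0.96) and Tspan2 (r = 0.95) follow the markers closely, Tppp (r = -0.04) does not, and G4 is at the far right of each panel.

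Other marker lists were read in the same way, and only the midbrain dopamine list held genes that passed. Over all tested genes edgeR called 0.29%, so nothing is read from a list without calls. The oligodendrocyte progenitor and differentiating markers (10 tested) had a median slope of 0.41, with 373 to 645 CPM summed at 500 mg/kg and 313.8 to 365 CPM in vehicle mice, and none passed. Glutamatergic neuron markers (6 of 6 negative) had a median slope of -1.10 (-0.75 without G4), with 358 to 2221 CPM at 500 mg/kg and 444 to 4006 CPM in vehicle mice. Over all 15863 tested genes, 8127 slopes were positive. Of 4 midbrain dopamine neuron markers, Slc6a3 (the dopamine transporter, slope 6.30, adjusted p = 0.000729 from edgeR) and Ddc (dopa decarboxylase, slope 2.57, adjusted p = 0.0341 from edgeR) rose, and their summed level was 65.9 to 317 CPM at 500 mg/kg and 18.1 to 95.5 CPM in vehicle mice. The 317 CPM was G4, and without G4 only 1 of these 4 markers was called and the slopes were 5.75 for Slc6a3 and 1.65 for Ddc. Hindbrain and spinal cord markers (5 tested) summed to 18.6 to 111 CPM at 500 mg/kg and 2.31 to 236 CPM in vehicle mice, the highest being G9. GABAergic (3), astrocyte (6), microglia (6), endothelial (5) and Schwann cell markers (3 tested, with Pmp2 at 3 counts or fewer everywhere) had median slopes of 0.45, 0.11, -0.08, 0.05 and -0.09, and none passed. Without G4 the median was 0.27 for the GABAergic, 0.25 for the endothelial and -0.02 for the Schwann cell markers. The part of these cell types in the slopes of the 6 genes was not tested.

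The genes with the most similar profile were named from 15570 genes with a mean of at least 1 CPM, by Pearson r over 18 mice. For Arhgef10 they were Plekhh1 (0.96), Myrf (0.96), Otud7b (0.95), Plxnb3 (0.94) and Pacs2 (0.94), and for Plekhh1 they were Pacs2 (0.98), Myrf (0.97), Arhgef10 (0.96), Otud7b (0.96) and Plxnb3 (0.96). Myrf is the transcription factor that myelin genes need, Otud7b a deubiquitinase, Plxnb3 a semaphorin receptor of oligodendrocytes and Pacs2 a membrane sorting protein. Plekhb1 was nearest to Mbp (0.96), Ttyh2 (0.96), Cnp (0.96), Mog (0.95) and Bcas1 (0.95), and the 5 nearest to Tspan2 included Bcas1 (0.96), Mbp (0.96), Ndrg1 (0.95) and Mal (0.95), structural or membrane genes of myelin for the most part. The 5 nearest to Anln included Hapln2 (0.95), a link protein of the node of Ranvier, Slu7 (0.94), a splicing factor, Dbndd2 (0.94) and Arrdc3 (0.93). Tppp was nearest to Fscn1 (0.95), an actin-bundling protein, Wasl (0.95), an activator of actin branching, A830018L16Rik (0.93), Dusp3 (0.93) and B3galt1 (0.92), none of them in the oligodendrocyte marker list. Of the 30 places, 15 were filled by the same genes when deviations from group and sex means were used.

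Related genes were counted from lists written with earlier results of these data known. Over all 15863 tested genes the median slope was 0.01, and edgeR called 0.29% of them. Of these 15863 genes, 8127 had a positive slope, and without G4 it was 8025 of 16078. Of 18 other genes of the oligodendrocyte cytoskeleton none passed, 13 slopes were positive and the median was 0.17 (0.04 without G4). Ermn and Cnp are in both this list and the list of mature oligodendrocyte markers, so the 2 lists are not separate. Ermn, an actin-binding myelin protein, had 260.2 ± 150.0 CPM at 500 mg/kg and 149 ± 51.6 CPM in vehicle mice (slope 0.80 ± 0.30). Arpc3, a subunit of the actin-nucleating Arp2/3 complex, had a slope of -0.72 ± 0.23, and Myo1d, a myosin, of 0.62 ± 0.23. Without G4 the slope was 0.31 for Ermn and 0.32 for Myo1d. Of the 18 mature oligodendrocyte markers edgeR called none and DESeq2 called 5, Mobp and Hapln2 among them, against 1.4% of all genes. The unadjusted p from edgeR was under 0.05 for 15 of the 18, against 2091 of all 15863 genes (13.2%). All 18 slopes were positive in all mice and 15 without G4, with medians of 0.71 and 0.34. The medians of the 6 genes were 0.69 and 0.49.

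Families of the members were counted beside the 0.29% of all 15863 tested genes that edgeR called in either direction. At that share, lists of this size would hold few calls or none, so nothing is read from these counts. Of 22 tested Arhgef genes none passed (median 0.04), with 0.63 ± 0.21 for Arhgef6, -0.68 ± 0.68 for Arhgef33 and 0.54 ± 0.39 for Arhgef37. Without G4 the median was 0.10 and the slope of Arhgef6 was 0.42 and of Arhgef33 -0.36. Arhgef10l, the closest relative of Arhgef10, had 0.24 ± 0.13.

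Of 26 Plekh genes (median 0.07) 1 rose, Plekhf1, an endosomal protein with FYVE and pleckstrin homology domains, with 32.3 ± 6.18 CPM at 500 mg/kg and 15.4 ± 4.59 CPM in vehicle mice (slope 1.1195 ± 0.20, adjusted p = 0.0288 from edgeR). Among all tested genes 0.246% rose. Without G4 the slope of Plekhf1 was 0.98 and did not pass. Plekhh2 had a slope of 0.49 ± 0.17, Plekhb2 of 0.10 ± 0.12 and Plekhh3 of -0.20 ± 0.28, and without G4 Plekhb2 had 0.0042 and Plekhh3 0.0083.

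Anillin is best known from cytokinesis and mitosis. Of 16 genes of that setting 8 passed the filter on low counts, beside 15863 of all 27179 genes. None of the 8 passed the test, against 0.29% of all tested genes, and nothing is read from these counts. The median slope of the 8 genes was -0.22. Racgap1, a partner of the central spindle, had 5.10 ± 1.01 CPM at 500 mg/kg and 5.76 ± 1.17 CPM in vehicle mice. Without G4 the median was -0.08, while the slope of Racgap1 was -0.34, against -0.22 in all mice. Of 14 tubulins and partners of TPPP none passed with edgeR (median 0.20). Limk1, the kinase that inactivates cofilin, had 90.5 ± 37.3 CPM at 500 mg/kg and 48.7 ± 16.3 CPM in vehicle mice (slope 0.98 ± 0.23, called by DESeq2 only), Tppp3 had a slope of 0.70 ± 0.30 and Tubb3, a neuronal tubulin, of 0.55 ± 0.20. Without G4 the median was 0.10 and these slopes were 0.70 for Limk1, 0.45 for Tppp3 and 0.28 for Tubb3. Of 22 tetraspanins none passed (median -0.05), with 0.48 ± 0.34 for Cd82, -0.46 ± 0.19 for Tspan7 and -0.44 ± 0.19 for Tspan5. Without G4 the median was -0.10 and the slope of Cd82 was 0.13.

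**Figure D4:**
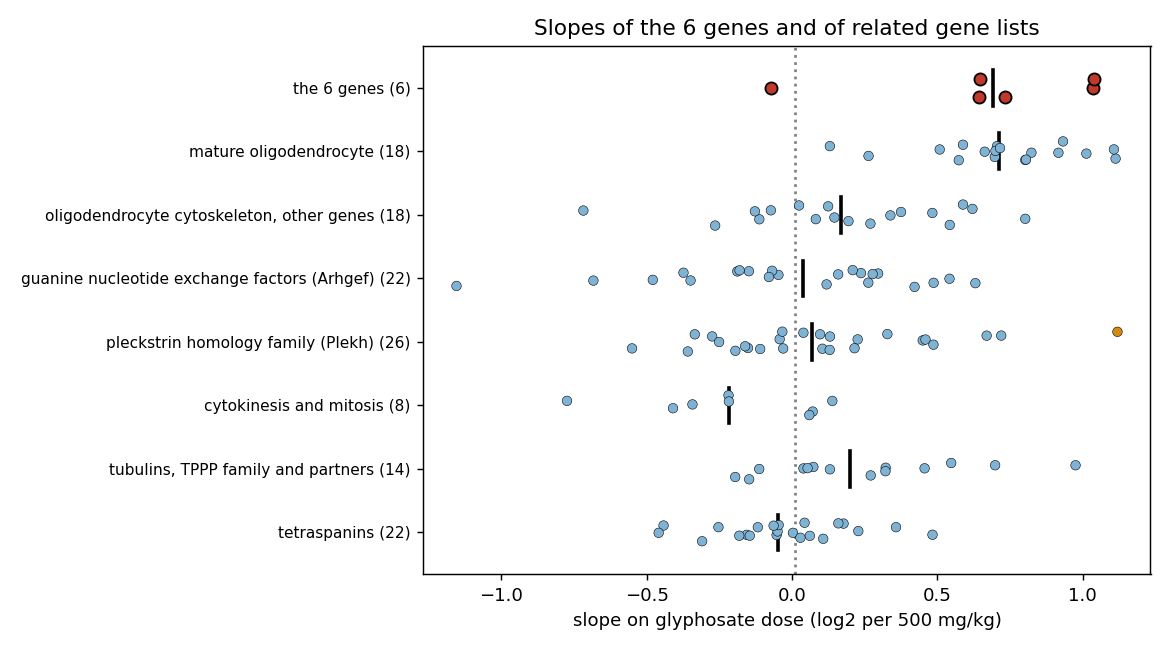
Slope on dose (log2 per 500 mg/kg, all 18 mice) of the 6 genes and of each tested gene in 7 lists, with list medians as black bars and the median of all 15863 tested genes (0.01) as a dotted line. The orange point is Plekhf1, which passed, and the mature oligodendrocyte markers have a median of 0.71 beside 0.69 for the 6 genes.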

How the data were processed

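RNA from half-brains of 18 mice was sequenced (250 ng input, 100 bp reads). The authors aligned reads to GRCm38 with STAR 2.7.5b and deposited raw counts per Entrez gene from featureCounts, and the submitters' notes also name MultiQC 1.12 and DESeq2 1.34.0. Symbols and promoters came from RefSeq (GRCm38.p6; 25275 of 27179 IDs matched) and exon lengths from GENCODE. Counts were tested with edgeR 4.0.16 in R 4.3.3 (quasi-likelihood, TMM, filterByExpr with a minimum count of 10, 15863 genes, Benjamini-Hochberg, adjusted p under 0.05), on dose divided by 500 mg/kg with sex as covariate. DESeq2 1.42.0 was an alternative, with other filters, scalings, samples and covariates. Scripts were tested on simulated data. Correlations used log2(CPM + 1) and carry no p. The biological coefficient of variation was 25.8%. Named genes were the 6 genes, their 5 most similar genes, close relatives, and from each list the genes that passed or else up to 3 with the largest slopes at a mean of at least 5 CPM. Some genes and 1 gene list are not reported here. The genes and lists were chosen with earlier results of these data known.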

Additional observations from a re-analysis of the deposited data

How the results depend on the processing

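Counts of genes called moved with several settings, and the cause was not tested. In the dose regression (46 genes, 1 of the 6) DESeq2 called 229 genes and 3 of the 6, dose as rank 27, no filter 29, the oligodendrocyte covariate 9, leaving out G4 and G9 (chosen after seeing the data) 2, leaving out the vehicle mice 7, and males alone, females alone, the tag number as a factor and leaving out the 500 mg/kg mice 0, with 0 of the 6 in each of these but DESeq2. Leaving out 1 mouse gave 2 (without G4) to 127 genes (without G79) and 0 to 3 of the 6. At 500 mg/kg against vehicle (3 genes) DESeq2 called 166 and 1 of the 6 genes, a minimum of 10 counts in every library 8, no filter 9, only those groups 1, and leaving out G4 and G9 1, with 0 to 19 on leaving out 1 mouse. At 250 mg/kg (0 genes) DESeq2 called 24. At 125 mg/kg (0 genes) DESeq2 called 40, and its size factors, no filter and leaving out G4 and G9 each called 1, with 0 to 1 on leaving out 1 mouse. For the departure from a line (1 gene) DESeq2 called 148, and no filter and leaving out G4 and G9 each 2, with 0 to 2 on leaving out 1 mouse. For sex (7 genes) DESeq2 called 43 and the minimum of 10 counts 1, with 5 to 9 on leaving out 1 mouse. Over all lists (4 genes) DESeq2 called 11 and leaving out G4 left 1.

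Signs changed as follows. The Tppp slope was 0.049 without the 500 mg/kg mice and -0.16 to 0.020 on leaving out 1 mouse. Tppp at 500 mg/kg against vehicle was -0.024 with only those groups, -0.13 without G4 and G9, and -0.067 to 0.12 on leaving out 1 mouse. Leaving out 1 mouse gave -0.076 to 0.13 for Plekhb1 and -0.10 to 0.050 for Tppp at 250 mg/kg, and -0.060 to 0.16 for Arhgef10, -0.062 to 0.26 for Plekhh1 and -0.071 to 0.25 for Anln at 125 mg/kg. The sex difference without G4 and G9 was 0.0095 for Arhgef10, 0.013 for Plekhh1, 0.040 for Anln and 0.072 for Tspan2, and on leaving out 1 mouse -0.16 to 0.020 for Arhgef10, -0.18 to 0.0044 for Plekhh1 and -0.20 to 0.050 for Tspan2. The difference between male and female slopes was -0.0074 for Tppp with DESeq2 and -0.0093 with its size factors, and 0.79 for Tspan2 without G4 and G9, and on leaving out 1 mouse -0.14 to 0.72 for Plekhh1, -0.38 to 1.24 for Anln, -0.16 to 0.97 for Plekhb1, -0.21 to 0.20 for Tppp and -0.48 to 0.76 for Tspan2.

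The median r of the 10 pairs without Tppp was 0.71 without G4 and G87 and 0.77 without G4 and G9, and that of the pairs with Tppp was -0.22 without G4 and G87. Of the 30 most similar genes, 15 were shared when deviations from group and sex means were used. No paired analysis was possible because mouse numbers are unique to each animal and no tag number is shared by all dose groups. The tag number was fitted only as a factor in the dose regression. With 4 or 5 mice in a group and 3948096 counts in the shallowest library, small differences could not be resolved.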
